A study of Mus musculus with 24 samples.

Results

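The 10 genes described here are 8 heat-shock genes (Hspa1a, Hspa1b, Hspa8, Hsph1, Hsp90aa1, Hsp90ab1, Dnajb1 and Hspb1) and 2 cold-inducible genes (Cirbp and Rbm3). They were taken by symbol from 53465 genes listed, as a list chosen with earlier results of these data known, and all 10 passed the filter on low counts that left 15493 genes for testing. The RNA came from CD31-positive cells, an endothelial surface marker, sorted from the brain of 1 C57BL/6J mouse per library. Control mice were Bmal1fl/fl, in which the clock gene Bmal1 carries loxP sites and is intact, and mutant mice were Bmal1fl/fl; Tie2cre, in which Cre driven by the Tie2 promoter deletes a Bmal1 exon. Mice of both genotypes thus carry the floxed allele, and the Tie2 promoter is also active in blood cell lineages, so the deletion need not be limited to the endothelium. All were kept in 12 h light and 12 h dark, and for each genotype 2 mice were taken at each of zeitgeber time (ZT, hours after lights on) 2, 6, 10, 14, 18 and 22, which gives 12 control and 12 mutant libraries. The age of these mice is not given in the sources used here. The study used mice of both sexes for RNA-seq, and the sex of each mouse is not given either. The study speaks of 2 independent experiments, and which mouse belongs to which is not given in the sources used here. Before sorting, the minced brains of every group were digested with collagenase at 37 °C for 30 min, which is near the body temperature of a mouse.

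Heat-shock genes encode chaperones, proteins that help others to fold, and they are switched on by heat-shock factor HSF1 when unfolded proteins accumulate, as they do when cells warm. Cirbp and Rbm3 encode RNA-binding proteins whose levels go up when cells cool by a few degrees. Mice are warmer in their active dark phase than in the light phase, and this daily temperature change is known to drive both gene groups in opposite phases in other tissues, also where the local clock is disabled.

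Library totals lay between 6136404 and 6648311 normalized reads. The 8 libraries of ZT6 and ZT18 carry consecutive library numbers in both genotypes, and their content of other cells differed. The summed reads of 8 microglial markers were 1114 to 1869 in them against 10020 to 26740 in the other 16, those of 8 mural markers (pericytes and smooth muscle) 13980 to 22930 against 8969 to 17840, and the mitochondrial share was 2.68% to 3.90% against 5.78% to 17.4%. These time points and that set of libraries cannot be told apart, so the dark and light, genotype and correlation results are also given within the 8 and within the 16. The libraries carry 1 of 2 i5 barcode indices, which are not spread evenly: all 6 light controls have the first, while 4 of 6 mice have the second in each of the dark control, light mutant and dark mutant groups. All 8 libraries of ZT6 and ZT18 have the first index. Among the other 16 only the light controls have it, and all dark controls and all mutants have the second. Within the 16, the index thus cannot be told apart from the dark and light difference in controls. The same holds there for the genotype difference in the light phase. The 10 endothelial markers summed to 66900 to 112800 reads per library, and none was at 0 in any library. Arntl, the symbol under which Bmal1 is listed, ran from 1 to 468 reads in control mice and from 81 to 354 in mutant mice. Its count covers the whole gene, exons outside the deleted part included, and so does not check the deletion.

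The 10 genes differed widely in level. Per kilobase of merged exons, Hsp90ab1, the constitutive cytosolic Hsp90, had 4814 ± 1015 normalized reads (SD, n = 24 mice), and Hspa8, the constitutive Hsp70, had 2322 ± 600. They were followed by Hsp90aa1, the inducible Hsp90, at 1083 ± 289, by the small heat-shock protein gene Hspb1 at 590 ± 261, and by Hspa1a, an inducible Hsp70, at 347 ± 211. Dnajb1, an Hsp40 co-chaperone, had 258 ± 72.7 reads per kilobase, Hspa1b, the other inducible Hsp70, 240 ± 142, Rbm3 93.1 ± 23.6, Hsph1, an Hsp110 exchange factor for Hsp70, 90.99 ± 42.96, and Cirbp 34.96 ± 17.69. Each of the 3 highest genes was above the next in at least 23 of 24 mice. Hspa1a was above Dnajb1 in 15 mice, Dnajb1 above Hspa1b in 15 and Rbm3 above Hsph1 in 12, so these neighbours do not separate beyond their spread.

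Hspa1a (ENSMUSG00000091971) and Hspa1b (ENSMUSG00000090877) are single-exon genes on the minus strand of chromosome 17 of GRCm38, at 34969190 to 34972156 and 34956436 to 34959238, with 9951 bases between them. Of the 100-base stretches of their transcripts, 47.1% of those of Hspa1a are also in Hspa1b and 49.9% of those of Hspa1b are also in Hspa1a, so that their separate counts are uncertain. Hspa1a had more reads than Hspa1b in 24 of 24 libraries, with a ratio from 1.04 to 2.57 and a median of 1.54. Processed pseudogenes share stretches with 4 of the other members: 26.3% of the stretches of Hspa8 are in Gm15459, 31.6% of those of Hsp90aa1 in Gm12346, 44.0% of those of Hspb1 in Hsp25-ps1 and 3.06% of those of Rbm3 in Rbm3-ps. The reads listed for these pseudogenes were on average 12.3%, 2.08%, 35.5% and 1.91% of those of the parent gene. Hsph1, Hsp90ab1, Dnajb1 and Cirbp share no 100-base stretch with another annotated transcript.

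The promoters are shown because the heat-shock genes vary together across mice, as described further on. RefSeq windows on GRCm38.p6, from 250 bases before to 50 after a transcription start, were at hand for 6 members in 9 windows. HSF1 binds alternating GAA and TTC units, and the windows were searched on both strands for the pairs GAANNTTC and TTCNNGAA, which are held by 7.86% and 8.52% of all 32851 windows, and for 3 units in a row (GAANNTTCNNGAA or TTCNNGAANNTTC, 0.603%), which contain both pairs. The E-box CACGTG, which the BMAL1 and CLOCK proteins bind, was in 7.15% of windows, and TCCCCGCC, described as a mild-cold element of Cirbp, in 5.38%. In the 30-base stretches that follow, 5′ to 3′ on the strand of the gene, capitals mark the match, and its first base is counted from the start site of the window.
Hspa1a, chr17:34972242-34972271, minus strand, pair at base -104 from the start: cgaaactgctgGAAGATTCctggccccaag
Hspb1, chr5:135887791-135887820, plus strand, pair at base -117: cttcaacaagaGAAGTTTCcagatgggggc
Hspb1, chr5:135887811-135887840, plus strand, pair at base -97: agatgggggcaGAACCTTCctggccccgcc
Hsph1, chr5:149636351-149636380, minus strand, pair at base -33: gggtagaatctTTCTCGAAggctcgagaag
Hsph1, chr5:149636287-149636316, minus strand, 3 units at base 37: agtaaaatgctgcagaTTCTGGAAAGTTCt
Hsph1, chr5:149636317-149636346, minus strand, E-box at base 3: aagcggaagtggCACGTGgaggcgccggtg
Cirbp, chr10:80167589-80167618, plus strand, mild-cold element at base -247: ctgTCCCCGCCtcctagtcgctagcgggcg

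The windows of Hspa1a and Hspa1b differ at 4 of 300 bases, and Hspa1b holds the same 30 bases at chr17:34959324-34959353. Both also hold the mild-cold letters on the opposite strand, as does 1 window of Dnajb1. Among the members with an entry, these letters were thus not limited to Cirbp, and Rbm3 had no entry. Neither window of Dnajb1 or of Cirbp held a heat-shock pair. Among the members with an entry, only Hsph1 held 3 units or an E-box.

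The first question was whether the genes differed between the dark phase (ZT14, 18 and 22) and the light phase (ZT2, 6 and 10). The fitted fold change was above 1 for all 8 heat-shock genes and below 1 for both cold-inducible genes, in control and in mutant mice. The fold changes over both genotypes ran from 1.28 for Hsp90ab1 to 2.15 for Hspa1a, and were 0.645 for Cirbp and 0.788 for Rbm3. With edgeR's quasi-likelihood test over all 24 mice, all 10 had an unadjusted p under 0.05, which 4.05% of the 15493 genes had. No member and no other gene had a Benjamini-Hochberg adjusted p under 0.05 (0.0%), so none is called. The median log2 fold change was 0.57 over the 8 heat-shock genes and -0.0013 over all genes tested.

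**Figure D1:**
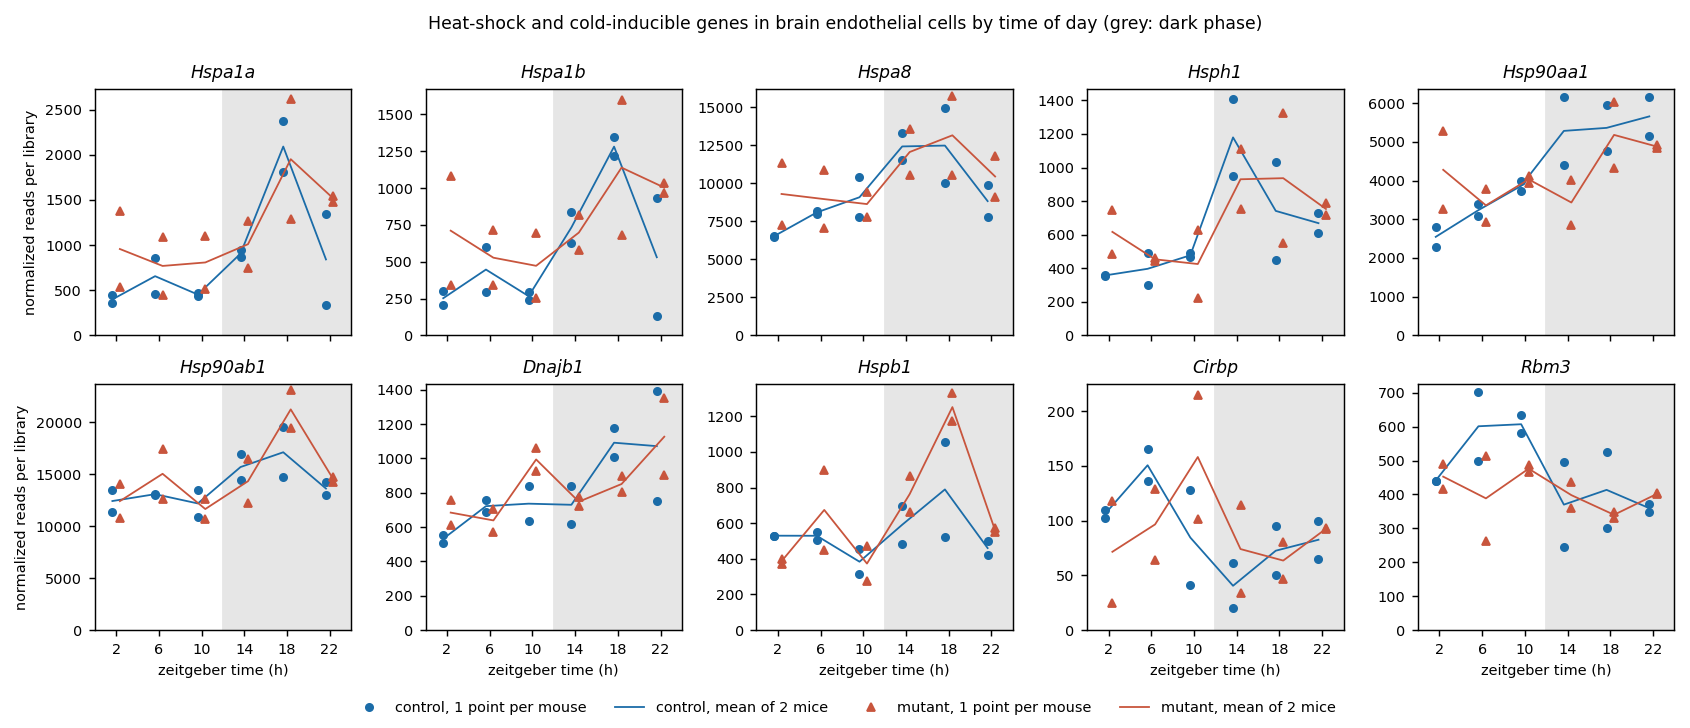
Normalized reads (vertical axis) of the 10 genes against zeitgeber time in hours, with 1 point per mouse, circles for control and triangles for mutant mice, lines through the mean of the 2 mice of a group, and the dark phase in grey. Hspa1a reaches 2614 reads and Hsph1 1408 in the grey area, while Cirbp and Rbm3 reach their highest values, 215 and 703 reads, in the light phase.

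Hsph1 (ENSMUSG00000029657, chromosome 5, 149614287 to 149636376, minus strand), which reloads Hsp70 with ATP, had the smallest p of the members in the dark and light comparison. In control mice its normalized reads were 356 and 358 in ZT2 mice, 493 and 300 in ZT6 mice, 489 and 465 in ZT10 mice, 1408 and 951 in ZT14 mice, 1032 and 451 in ZT18 mice, and 730 and 607 in ZT22 mice. In mutant mice they were 747 and 486 in ZT2 mice, 463 and 443 in ZT6 mice, 629 and 221 in ZT10 mice, 1109 and 751 in ZT14 mice, 1323 and 550 in ZT18 mice, and 716 and 790 in ZT22 mice. In controls 5 of 6 dark mice were above every light mouse, the exception being the second ZT18 mouse, and in mutants 4 of 6 were. The log2 fold change, dark minus light, was 0.98 (SE 0.19, unadjusted p = 2.08e-05, adjusted p = 0.322 by edgeR's quasi-likelihood test).

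Over both genotypes together, the inducible Hsp70 genes had the largest fold changes of the members, although in mutants alone Hspb1 (log2 fold change 0.84) and within the 16 other libraries Hsph1 (0.96) had the largest. Hspa1a had 442 and 355 in ZT2 mice, 853 and 458 in ZT6 mice, 464 and 440 in ZT10 mice, 869 and 942 in ZT14 mice, 2373 and 1810 in ZT18 mice, and 1348 and 334 in ZT22 mice in control mice. Mutant mice had 1376 and 537 in ZT2 mice, 1091 and 447 in ZT6 mice, 1103 and 512 in ZT10 mice, 1271 and 749 in ZT14 mice, 2614 and 1289 in ZT18 mice, and 1481 and 1549 in ZT22 mice. In controls 5 of 6 dark mice were above all light mice, and the second ZT22 mouse, at 334, was below all of them. In mutants the groups overlapped, since the first mouse of each light time point, with 1091 to 1376 reads, was near the dark mice. Hspa1b had 205 to 602 reads in the 6 light control mice (median 292) and 130 to 1345 in the 6 dark ones (median 884), against 251 to 1081 (median 518) and 578 to 1598 (median 893) in mutants. The log2 fold changes were 1.10 (SE 0.25, unadjusted p = 0.000177, adjusted p = 0.63) for Hspa1a and 1.08 (SE 0.28, unadjusted p = 0.000719, adjusted p = 0.63) for Hspa1b, by edgeR's quasi-likelihood test.

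Hspa8 (ENSMUSG00000015656, chromosome 9, 40800984 to 40810087, plus strand), which folds proteins and uncoats clathrin vesicles in unstressed cells, had 6489 and 6542 in ZT2 mice, 7990 and 8163 in ZT6 mice, 7754 and 10394 in ZT10 mice, 13283 and 11540 in ZT14 mice, 14926 and 10012 in ZT18 mice, and 9882 and 7756 in ZT22 mice in controls. In mutants it had 11306 and 7271 in ZT2 mice, 10848 and 7053 in ZT6 mice, 9449 and 7801 in ZT10 mice, 13528 and 10563 in ZT14 mice, 15718 and 10568 in ZT18 mice, and 9082 and 11794 in ZT22 mice. In controls both ZT14 mice and the first ZT18 mouse were above all light mice, and the second ZT18 mouse and both ZT22 mice were not. Its log2 fold change was 0.49 (SE 0.12, unadjusted p = 0.000545, adjusted p = 0.63, edgeR).

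The Hsp90 genes, whose proteins stabilize kinases and steroid receptors, are given next. Hsp90aa1 (ENSMUSG00000021270, chromosome 12, 110690605 to 110702728, minus strand) had 2283 and 2806 in ZT2 mice, 3386 and 3084 in ZT6 mice, 3734 and 3990 in ZT10 mice, 6167 and 4396 in ZT14 mice, 5947 and 4772 in ZT18 mice, and 5156 and 6156 in ZT22 mice in controls. It was the only member whose 6 dark and 6 light control mice did not overlap, which held for 0.265% of all genes tested. In mutants its reads were 5287 and 3265 in ZT2 mice, 3774 and 2940 in ZT6 mice, 4117 and 3942 in ZT10 mice, 4018 and 2845 in ZT14 mice, 6021 and 4335 in ZT18 mice, and 4843 and 4912 in ZT22 mice, and the groups overlapped, as for all 10 members in mutants (0.168% of genes tested did not overlap there). Hsp90ab1 (ENSMUSG00000023944, chromosome 17, 45567775 to 45573271, minus strand) had 10923 to 13467 reads in light control mice (median 13079) and 12967 to 19510 in dark ones (median 14579), and 10690 to 17421 (median 12631) and 12225 to 23067 (median 15573) in mutants. The log2 fold changes over both genotypes were 0.51 (SE 0.13, unadjusted p = 0.000591, adjusted p = 0.63) and 0.36 (SE 0.11, unadjusted p = 0.00282, adjusted p = 0.949) by edgeR's quasi-likelihood test.

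Dnajb1 (ENSMUSG00000005483, chromosome 8, 83608193 to 83612653, plus strand), which hands substrates to Hsp70, had 508 to 837 reads in light control mice (median 663) and 619 to 1390 in dark ones (median 925), against 572 to 1061 (median 732) and 723 to 1349 (median 851) in mutants. Hspb1 (ENSMUSG00000004951, chromosome 5, 135887919 to 135889563, plus strand), which holds unfolded proteins and binds actin, had 315 to 552 (median 518) in the light and 421 to 1054 (median 513) in the dark in controls, and 273 to 898 (median 426) and 548 to 1329 (median 764) in mutants. The dark median of Hspb1 was thus not above the light median in controls, and only 3 of 6 dark control mice exceeded it. The log2 fold changes were 0.41 (SE 0.13, unadjusted p = 0.00547, adjusted p = 0.999) for Dnajb1 and 0.62 (SE 0.19, unadjusted p = 0.00294, adjusted p = 0.949) for Hspb1, by edgeR's quasi-likelihood test.

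Cirbp (ENSMUSG00000045193, chromosome 10, 80165985 to 80172786, plus strand) encodes an RNA-binding protein that stabilizes target mRNAs in the cold. Its reads in controls were 110 and 102 in ZT2 mice, 136 and 165 in ZT6 mice, 41 and 128 in ZT10 mice, 20 and 61 in ZT14 mice, 50 and 95 in ZT18 mice, and 100 and 65 in ZT22 mice. In mutants they were 25 and 118 in ZT2 mice, 64 and 129 in ZT6 mice, 101 and 215 in ZT10 mice, 34 and 114 in ZT14 mice, 47 and 80 in ZT18 mice, and 92 and 93 in ZT22 mice. In controls 5 of 6 light mice were above every dark mouse, the exception being 41 reads at ZT10, and in mutants 3 of 6 were. Rbm3 (ENSMUSG00000031167, chromosome X, 8138975 to 8145880, minus strand), the other cold-inducible RNA-binding protein gene, had 441 and 441 in ZT2 mice, 499 and 703 in ZT6 mice, 634 and 580 in ZT10 mice, 244 and 496 in ZT14 mice, 301 and 526 in ZT18 mice, and 372 and 347 in ZT22 mice in controls. In mutants it had 490 and 415 in ZT2 mice, 263 and 514 in ZT6 mice, 466 and 486 in ZT10 mice, 360 and 436 in ZT14 mice, 332 and 348 in ZT18 mice, and 400 and 403 in ZT22 mice, and 4 of 6 light mice were above every dark mouse, against 3 of 6 in controls. The log2 fold changes were -0.63 for Cirbp (SE 0.28, unadjusted p = 0.0337, adjusted p = 0.999) and -0.34 for Rbm3 (SE 0.12, unadjusted p = 0.00942, adjusted p = 0.999) by edgeR's quasi-likelihood test.

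Within the 16 libraries of ZT2, 10, 14 and 22, all 10 log2 fold changes kept their sign, from 0.30 (Hsp90ab1) to 0.96 (Hsph1) for the heat-shock genes and at -0.51 for Cirbp and -0.33 for Rbm3. There 9 members had an unadjusted p under 0.05 (4.48% of all genes), Cirbp being the exception at an unadjusted p = 0.164, and none was called by edgeR. Within the 8 libraries of ZT6 and ZT18 the signs were again the same, and 3 members were called: Hspa1a at 1.51 (adjusted p = 0.00117), Hsp90aa1 at 0.68 (adjusted p = 0.0187) and Hspa1b at 1.32 (adjusted p = 0.0139). They were 3 of the 9 genes called there (0.0581%), while 9 members against 5.27% of all genes had an unadjusted p under 0.05. That comparison is of the 4 ZT18 mice with the 4 ZT6 mice. These 8 libraries share 1 i5 index, while within the 16 the light and dark controls differ in index.

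Taken by genotype, 8 members in controls (3.41% of all genes) and 5 in mutants (3.63%) had an unadjusted p under 0.05, and no gene was called in either. The signs were the same in both for all 10. The fold change differed between the genotypes at an unadjusted p under 0.05 for 1 member, against 3.89% of all genes: Hsp90aa1 had a log2 fold change of 0.81 (SE 0.15) in controls and 0.21 (SE 0.17) in mutants, a difference of -0.60 (SE 0.24, unadjusted p = 0.0172, adjusted p = 1.0, edgeR's quasi-likelihood test). In controls all light mice share 1 i5 index, and with the index as a covariate the difference was -0.61 (SE 0.26, unadjusted p = 0.0244, adjusted p = 0.502, edgeR).

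**Figure D2:**
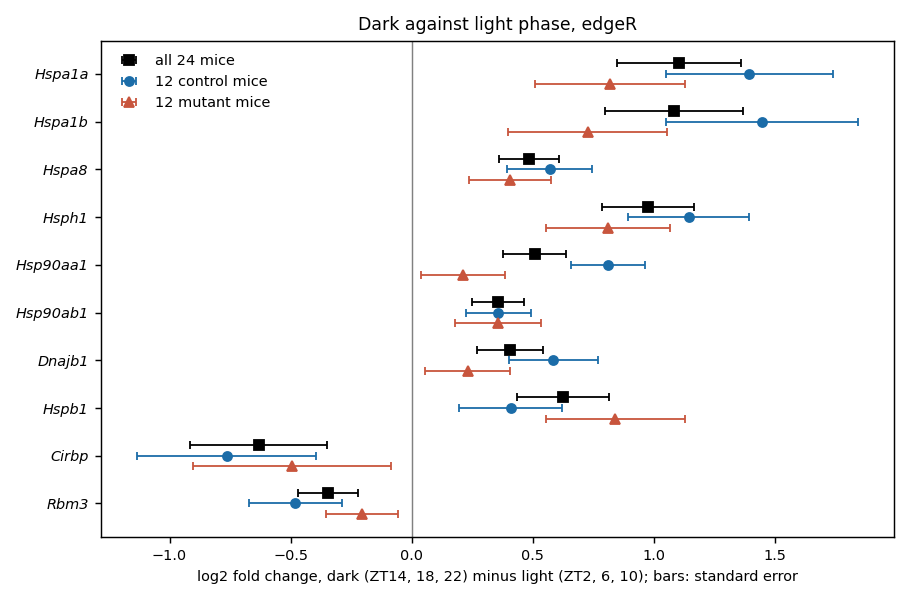
Log2 fold change, dark minus light (horizontal axis), of each gene by edgeR over all 24 mice (squares), the 12 controls (circles) and the 12 mutants (triangles), with bars for the standard error. All estimates for the heat-shock genes lie right of 0 and those for Cirbp and Rbm3 left of it, and Hsp90aa1 shows the widest gap between genotypes relative to its errors, at 0.81 and 0.21.

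The second question was whether the genes followed a 24-h rhythm. A cosine fitted over both genotypes peaked between ZT16.1 (Hspa8) and ZT18.3 (Hspa1a and Hspa1b) for the 8 heat-shock genes, and at ZT5.85 for Cirbp and ZT7.68 for Rbm3. Fitted peak-to-trough folds ran from 1.41 (Hsp90ab1) to 2.92 (Hspa1a) in the heat-shock genes and were 1.89 for Cirbp and 1.43 for Rbm3. Hsph1 was the only member called, with a fold of 2.55 and an adjusted p of 0.0386 by edgeR's quasi-likelihood test, as 0.503% of all genes were. Hspa8 (adjusted p = 0.0561, edgeR) and Hspa1a (adjusted p = 0.0575, edgeR) came next. All members but Cirbp (unadjusted p = 0.0948, edgeR) had an unadjusted p under 0.05, which 5.18% of all genes had. The call of Hsph1 held in 5 of the 24 fits that left out 1 mouse, with adjusted p from 0.0103 to 0.147, and was lost in the other 19. It held within the 16 libraries without ZT6 and ZT18, and within the 8 the model could not be fitted.

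Within each genotype, rhythms were tested with meta2d, which combines JTK_CYCLE, a rank test against cosine shapes, with the Lomb-Scargle periodogram. In controls 2 members had a p under 0.05, Hspa8 (unadjusted p = 0.0176) and Hsp90aa1 (unadjusted p = 0.0469), beside 2.43% of all genes, and in mutants none had, beside 2.27%. All q values of the members were 1, above the threshold of 0.6 that the study used. Without 1 mouse at a time, Hspa8 stayed under 0.05 in 9 of 12 fits and Hsp90aa1 in 4. An edgeR cosine fit had an unadjusted p under 0.05 for 8 members in controls (4.43% of all genes) and 4 in mutants (4.16%). When the difference in rhythm was tested, no gene was called (0.0%), and 1 member, Hsp90aa1, had an unadjusted p under 0.05 (unadjusted p = 0.0393, 4.26% of all genes, edgeR's quasi-likelihood test). Its fitted amplitude was 0.57 in controls and 0.25 in mutants on the log2 scale. With the i5 index as a covariate no member had an unadjusted p under 0.05 for this difference, Hsp90aa1 having an unadjusted p = 0.0516 (edgeR).

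Reads of the 8 heat-shock genes were also summed in each mouse and divided by those of Cirbp and Rbm3, as a description. The sums of the heat-shock genes ran from 22324 to 47234 in controls and from 23649 to 52413 in mutants. In controls the log2 ratio lay between 4.94 and 5.51 in the 6 light mice and between 5.80 and 7.27 in the 6 dark mice, which do not overlap. In mutants it lay between 5.13 and 6.78 in the light and between 5.73 and 7.11 in the dark, which overlap. The high light values in mutants came from the first mouse of ZT6, at 6.78, and the first mouse of ZT2, at 6.09. Hsp90ab1 and Hspa8 hold most of the reads in the sum, and Rbm3 most of those below it. The genes were chosen with earlier results known, and no share was computed for like ratios of other genes. Of single genes tested, 0.265% did not overlap in controls and 0.168% in mutants. All 6 light controls have the first i5 index, and 4 of the 6 dark controls the second. Whether the ratio differs between genotypes was not tested.

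**Figure D3:**
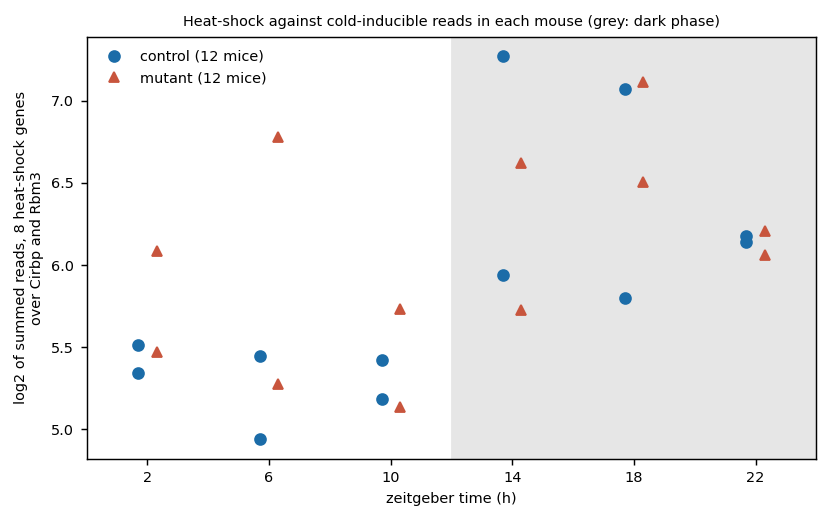
Log2 of the summed normalized reads of the 8 heat-shock genes over those of Cirbp and Rbm3 (vertical axis) in each mouse by zeitgeber time in hours, circles for control and triangles for mutant mice, dark phase in grey. The 6 light control mice stay at or below 5.51 and the 6 dark ones above it, while the mutant at ZT6 with 6.78 sits among the dark mice.

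The third question was whether the level of the genes, at whatever time, differed between genotypes. None of the 10 was called when edgeR's fit held the time points as levels, where 0.271% of all genes were, and 2 had an unadjusted p under 0.05, where 6.95% of all genes had. These were Hspa1a, with 891 ± 649 reads in controls and 1168 ± 598 in mutants (SD, n = 12 each, log2 fold change 0.54, SE 0.21, adjusted p = 0.539, edgeR), and Hspa1b, with 585 ± 414 and 758 ± 380 (0.53, SE 0.25, adjusted p = 0.695). The medians of Hspa1a were farther apart in the light phase, with medians of 450 and 814 reads in the 6 light controls and the 6 light mutants, and of 1145 and 1385 in the dark, and the dark and light log2 fold change of mutants minus that of controls was -0.58 (unadjusted p = 0.256, edgeR), or -0.97 with the i5 index as a covariate (SE 0.48, unadjusted p = 0.0531, adjusted p = 0.628, edgeR). Within the 8 libraries of ZT6 and ZT18 the log2 fold changes were 0.092 and 0.061, and within the other 16 they were 0.76 (unadjusted p = 0.00405, edgeR) and 0.77 (unadjusted p = 0.0191, edgeR), where these 2 were again the members with an unadjusted p under 0.05, beside 5.79% of all genes. Within the 8 they were instead 3 other members, beside 5.54% of all genes: Hspb1 at 0.53 (unadjusted p = 0.0102, edgeR), Hsp90ab1 at 0.28 (unadjusted p = 0.0172, edgeR) and Rbm3 at -0.43 (unadjusted p = 0.0393, edgeR), which within the 16 had 0.020, -0.048 and -0.032. None was called in either set. Within the 16, light controls and light mutants have different i5 indices, so index and genotype cannot be told apart there in the light phase. With the i5 index as a covariate they were 0.27 for Hspa1a (unadjusted p = 0.271, edgeR) and 0.21 for Hspa1b (unadjusted p = 0.466, edgeR), and Hspb1, at 0.40 (unadjusted p = 0.0123, adjusted p = 0.533, edgeR), was then the only member with an unadjusted p under 0.05. Of the 13 cell isolation genes, 8 also had an unadjusted p under 0.05 between genotypes by edgeR, all higher in mutants. So had 3 of 10 endothelial markers, all higher. The same held for 3 of 5 red blood cell, 2 of 6 astrocyte and 2 of 6 oligodendrocyte markers, all lower. The part of these genes in the values of Hspa1a and Hspa1b was not tested. The other 8 members ran from -0.16 (Rbm3, SE 0.12) to 0.20 (Hspb1, SE 0.13).

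The fourth question was whether the 2 groups of genes vary against each other from mouse to mouse. Over the 24 mice, all 8 heat-shock genes correlated negatively with Cirbp, with Pearson's r from -0.736 (Hsph1) to -0.0761 (Dnajb1), and with Rbm3, from -0.619 (Hsp90ab1) to -0.285 (Dnajb1). Of the 17 relations computed, 10 had a Benjamini-Hochberg adjusted p under 0.05 by a two-sided test with 100000 permutations of the mice: 4 with Cirbp, 5 with Rbm3, and that of Cirbp with Rbm3 (r = 0.452, p = 0.028, adjusted p = 0.0476, rho = 0.504, permutation p = 0.013). Hsph1 with Cirbp had r = -0.736 (permutation p = 5e-05, adjusted p = 0.00085) and rho = -0.701 (permutation p = 0.00022, adjusted p = 0.00374), and r = -0.598 without the 2 mice farthest from the median. Hspa8 with Cirbp had r = -0.601 (permutation p = 0.00167, adjusted p = 0.00946) and rho = -0.571 (permutation p = 0.00399, adjusted p = 0.017), and r = -0.592 without the 2 mice. Hsp90ab1 with Rbm3 had r = -0.619 (permutation p = 0.00135, adjusted p = 0.00946) and rho = -0.559 (permutation p = 0.00517, adjusted p = 0.0176), and r = -0.570 without them. By rank, 6 relations with Cirbp and 4 with Rbm3 passed, and Dnajb1 passed in none. Of all other genes tested, 0.516% had an r with Cirbp at or below that of the weakest of the 4 (Hsp90ab1, -0.526), and 1.23% had an r with Rbm3 at or below that of the weakest of the 5 (Hsp90aa1, -0.471). Permuting all 24 mice does not hold the time of day fixed, so these p-values also carry the dark and light difference of both groups of genes.

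The relations were also computed within each set of libraries. Within the 8 libraries of ZT6 and ZT18, r with Cirbp ran from -0.954 (Hspa8) to -0.682 (Dnajb1), and in an exact permutation test 7 of 8 passed by Pearson's r and 2 by rank. There r with Rbm3 ran from -0.827 (Hsp90ab1) to -0.391 (Dnajb1), and 2 of 8 passed by Pearson's r and 0 by rank. Within the other 16, r ran from -0.697 (Hsph1, adjusted p = 0.0519, permutation test) to 0.0796 (Dnajb1), and none of the 17 relations passed, although 16 kept their sign. Within the 12 controls none passed and within the 12 mutants 6 did. In controls r with Cirbp ran from -0.7655 (Hsph1, adjusted p = 0.06, permutation test) to -0.0478 (Hspb1), and with Rbm3 from -0.674 to -0.308. In mutants r with Cirbp ran from -0.7395 (Hspa1b, adjusted p = 0.0309, permutation test) to 0.0264 (Dnajb1), and with Rbm3 from -0.777 to -0.0495. Whether r differs between the genotypes was not tested. To set time of day and genotype aside, each mouse was also expressed as its deviation from the mean of the 2 mice of its group, as a description. The deviations correlated at -0.809 for Hsp90aa1 with Cirbp, -0.652 for Hsph1, -0.621 for Hsp90ab1 and -0.537 for Hspa8, and at -0.219 for Dnajb1 and -0.166 for Hspb1. In 10 of 12 pairs of mice of the same genotype and time, the mouse with more Hsph1 had less Cirbp, and the same count held for Hsp90aa1, the highest counts of the 16 relations. For the other heat-shock genes with Cirbp the count ran from 5 (Hspb1) to 9 (Hsp90ab1), and with Rbm3 from 6 (Hspb1) to 9 (Hspa1b and Hsp90aa1), where 6 of 12 is no preference for either direction. Cirbp and Rbm3 moved in opposite directions in 3 of 12 pairs. The pairs include the first ZT14 control mouse, with 1408 reads of Hsph1 and 20 of Cirbp, beside its partner with 951 and 61.

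**Figure D4:**
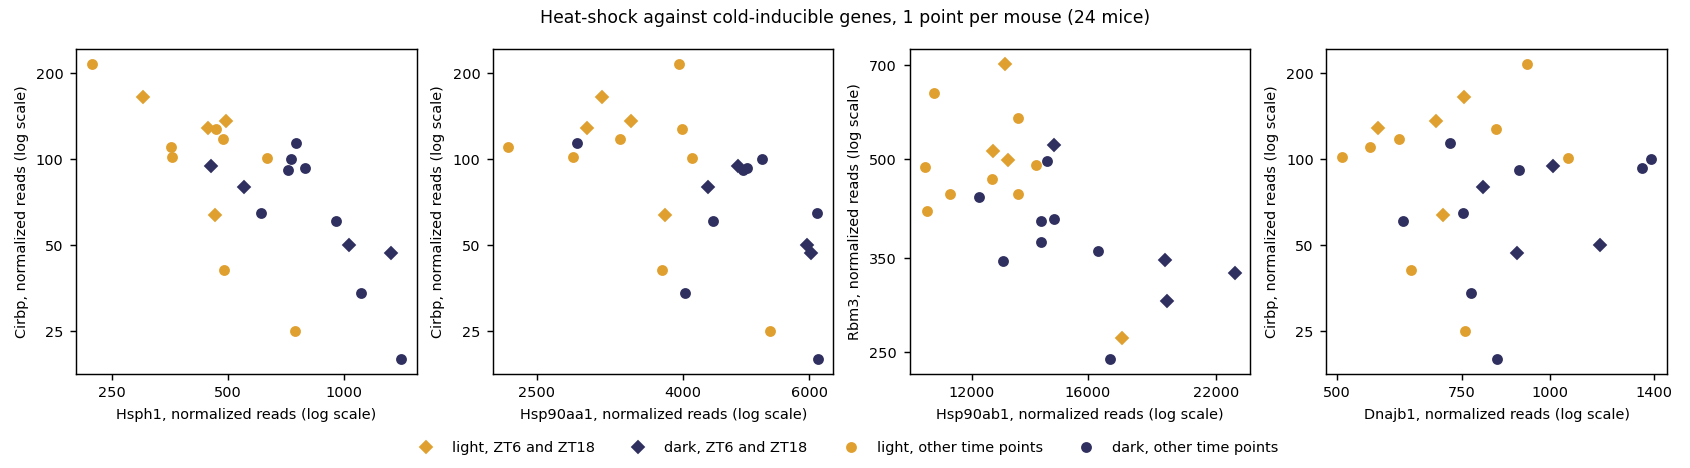
Normalized reads of Hsph1, Hsp90aa1 and Dnajb1 against Cirbp and of Hsp90ab1 against Rbm3 on log axes, 1 point per mouse, light or dark by colour, diamonds for ZT6 and ZT18 and circles for the other time points. Cirbp is at 215 reads at the lowest Hsph1 value, 221, and at 20 reads at the highest, 1408, while Dnajb1 against Cirbp has r = -0.0761.

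Among themselves, the 28 pairs of heat-shock genes had Spearman's rho from 0.19 (Hsp90aa1 with Hspb1) to 0.948 (Hspa1a with Hspa1b), with a median of 0.65, as a description over 24 mice. Hspa8 stood closest to Hsp90ab1 (0.823) and Hsph1 (0.812). Hspb1 was near Hsp90ab1 (0.755) and far from Dnajb1 (0.197). Hspa1a and Hspa1b share sequence, and the part of shared reads in their likeness was not tested.

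**Figure D5:**
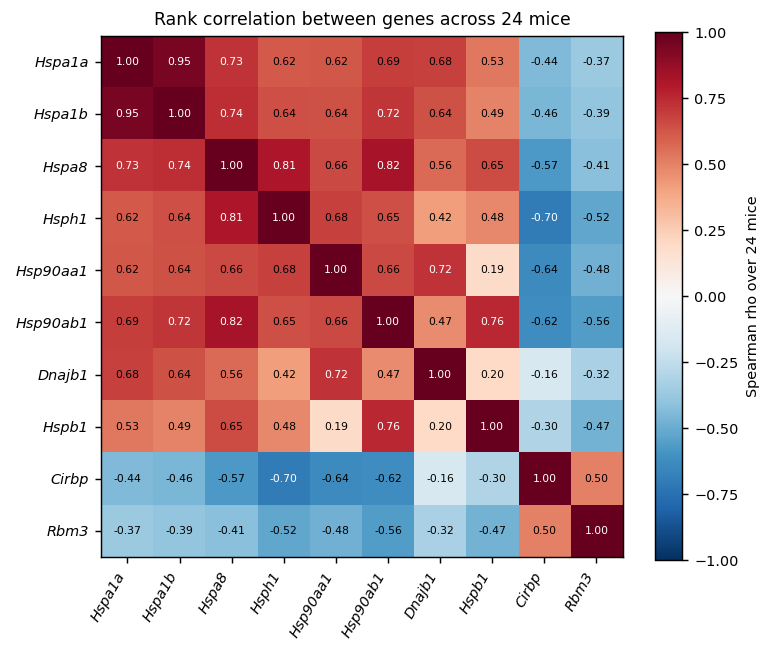
Spearman's rho between each 2 of the 10 genes over 24 mice, red for positive and blue for negative values, with the value in each cell. The 8 heat-shock genes form a positive block from 0.19 to 0.948, Cirbp and Rbm3 are positive with each other at 0.504, and every cell between the 2 groups is negative.

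Outside the members, the genes most like each one over the 24 mice were found by the same rho. Dnaja1, another Hsp40 gene, was among the closest 3 for Hspa1b (0.847), Hspa1a (0.813), Hspa8 (0.897), Hsph1 (0.802) and Hsp90ab1 (0.838). The pseudogene Gm15459, which shares stretches with Hspa8, had rho of 0.922 with it, and Gm8355, another, 0.845. Hsp90aa1 was closest to Malsu1 (0.806) and to Hspa5, the Hsp70 of the endoplasmic reticulum (0.805), Dnajb1 to Eloa (0.818) and Hspb1 to Fgd5 (0.850) and Klf2 (0.825), a flow-responsive transcription factor. Cirbp was closest to Coq8a (0.723). Rbm3 was closest to Nr1d1 (0.777), the clock gene that encodes REV-ERB alpha, whose reads ran from 24 to 1765 in controls and from 12 to 198 in mutants.

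Many genes differed between the ZT6 and ZT18 libraries and the others, and the count of members that did was near the share of all genes. By edgeR's quasi-likelihood test, Hspb1 had a log2 fold change of 0.67 (SE 0.18, adjusted p = 0.00766) and Hsp90ab1 of 0.32 (SE 0.11, adjusted p = 0.0431), so that 2 of 10 members were called beside 16.7% of all genes, and 3 beside 26.8% had an unadjusted p under 0.05. Hspb1 was called in 24 of 24 fits without 1 mouse and Hsp90ab1 in 13. The highest 2 values of Hspb1, 1329 and 1174, were those of the mutants at ZT18. In the same libraries 8 of 8 mural markers had higher values (median log2 fold change 0.51, 7 called), as did 13 of 13 cell isolation genes (median 0.52, 7 called) and 10 of 10 endothelial markers (median 0.34, 7 called), while 8 of 8 microglial markers fell (median -3.80). The medians of neuron (-2.59), oligodendrocyte (-1.70), astrocyte (-1.59) and red blood cell markers (-0.63) were negative too. Their part in the values of Hspb1 and Hsp90ab1 was not tested. With the i5 index of the library barcode as a covariate, Hspb1 was at 0.76 (adjusted p = 0.14, edgeR) and Hsp90ab1 at 0.47 (adjusted p = 0.109, edgeR), so that neither was called although neither log2 fold change was smaller. Hspa1a, at 1.66 (adjusted p = 0.0105, edgeR), and Hspa1b, at 1.72 (adjusted p = 0.0156, edgeR), were called in that fit. It called 1003 of all genes tested, against 2595 in the fit without the index. The fit with the index held no term for dark and light. Outside ZT6 and ZT18 only light controls have the first index, which all ZT6 and ZT18 libraries have. The values of Hspa1a and Hspa1b in it can thus also carry the dark and light difference, and how much was not tested.

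The further HSF targets and co-chaperones included Bag3, Dnaja1, Dnajb4, Hspa4, Hspb8, Cryab, Hspd1, Hspe1, Serpinh1, Stip1 and Ahsa1. Of the 18 in the list, 17 had higher values in the dark, with a median log2 fold change of 0.33, beside 7720 of all 15493 genes and a median of -0.0013. There were 8 with an unadjusted p under 0.05, all higher, beside 4.05% of all genes, but none was called. Ahsa1, an activator of Hsp90, had a log2 fold change of 0.47 (SE 0.12, unadjusted p = 0.000723, adjusted p = 0.63, edgeR) and Dnaja1 of 0.58 (SE 0.16, unadjusted p = 0.00142, adjusted p = 0.785, edgeR), with fitted peaks at ZT17.7 and ZT16.4. Of 8 heat-shock factors and chaperone regulators that passed the filter, none had an unadjusted p under 0.05 in the dark and light test, with a median of 0.011, and Hsf2 had -0.15 (SE 0.18, unadjusted p = 0.41, edgeR). Of 11 other Hsp70 and DnaJ genes, 1 was higher and 1 lower at an unadjusted p under 0.05: Dnajb2 at 0.41 (SE 0.17, unadjusted p = 0.022, edgeR) and Trap1, the mitochondrial Hsp90, at -0.32 (SE 0.12, unadjusted p = 0.00937, edgeR). Of 13 temperature-linked RNA processing genes, none had an unadjusted p under 0.05 in that test, and in the rhythm test the splicing kinases Clk4 (unadjusted p = 0.0306, peak at ZT14.7) and Clk3 (unadjusted p = 0.0406, ZT15.2) had, with adjusted p of 0.836 and 0.916 by edgeR. None of the genes of these lists was called in the dark and light, the rhythm or the genotype test. In the test of ZT6 and ZT18 against the rest, Serpinh1 (0.50), Cryab (-0.77), Hspa12b (0.33) and Hspa2 (0.39) were called.

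Genes known to respond to cell isolation were measured beside the members. The 13 genes of that list summed to 24120 to 89970 reads in light mice (median 59060) and 33600 to 87460 in dark mice (median 73460). The fitted values of 11 of the 13 were higher in the dark, with a median log2 fold change of 0.19, and none had an unadjusted p under 0.05. Over the 24 mice their sum had Spearman's rho of 0.449 with the sum of the heat-shock genes, 0.0044 with Cirbp and -0.117 with Rbm3. The sum of 5 red blood cell genes, all with higher fitted values in the dark (median log2 fold change 0.38, none with an unadjusted p under 0.05), had rho of -0.436 with Cirbp, -0.163 with Rbm3 and -0.0104 with the heat-shock sum. The mural sum had rho of 0.288 with the heat-shock sum and 0.0478 with Cirbp. Microglial, astrocyte, oligodendrocyte and neuron markers had rho from -0.352 to -0.243 with the heat-shock sum, and none of their 26 genes but Gja1 (-0.20, unadjusted p = 0.0417, edgeR) had an unadjusted p under 0.05 between dark and light. Of 8 microglial markers, 0 had higher fitted values in the dark (median log2 fold change -0.14). For astrocyte (median -0.052) and neuron markers (-0.21) it was 1 of 6 each, and for oligodendrocyte markers (0.22) 5 of 6. Their part in the results, and that of cell isolation, was not tested. In sorted cells as here, fewer cells that express a gene and less RNA per cell cannot be told apart.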

How the data were processed

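RNA-seq libraries of sorted brain endothelial cells, 1 per mouse, were used. The libraries were strand-specific. The authors aligned reads to GRCm38 with STAR 2.5.3a, used SAMtools 1.3.1 to merge lanes, and deposited whole-number counts per Ensembl gene, brought to like totals by PORT, so the depth sequenced cannot be read from them. Totals were 6136404 to 6648311. Whether the counting used the strand of the reads is not given in the sources used here.

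The tests took genes that reached 5 reads in 6 mice of a genotype. They used edgeR 4.0.16 (R 4.3.3) with TMM scaling and quasi-likelihood F tests, adjusted by Benjamini-Hochberg over 15493 genes. Standard errors were derived from the fold change and the F statistic. DESeq2 1.42.0 was an alternative. Meta2d was rewritten in Python 3.11.15 (NumPy 2.4.6, SciPy 1.17.1, pandas 2.3.3). Correlations used log2 TMM-scaled CPM, with 100000 permutations of the mice or, within 8 libraries, all of them. Plots used matplotlib 3.10.9, and gene positions GENCODE on GRCm38. The edgeR fits for rhythm, phase and genotype and the meta2d code were tested on simulated data. Replicate numbers of the labels name different mice, which share only a number.

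The members and lists were chosen with earlier results of these data known. All members are named. From the lists of further chaperone and temperature-linked genes, values are printed only for genes with an adjusted p under 0.05 (at most 4 per list and test), or else for genes among the 2 with the smallest p. The cell-type and cell isolation lists are given as counts, medians and sums, Gja1 excepted. For likeness the 3 highest Spearman coefficients per gene were taken, of which the text gives the leading ones. Fits within sets of libraries, within a genotype and of phase by genotype (also with the i5 index), and deviations from group means were added after the data were seen.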

Additional observations from a re-analysis of the deposited data

How the results depend on the processing

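Under the alternatives tried, leaving out 1 mouse included, the dark and light difference of the 10 genes kept its direction each time: 334 values kept their side of the threshold too, and 6 passed it. For the rhythm over both genotypes, 1 member was called (78 of all genes), against 7 with no filter (231), 3 with 10 or more reads in every mouse (90), 4 with DESeq2 (125), 3 with the number series (113) and 4 with the i5 index as a covariate (97), and 0 to 2 without 1 mouse. For dark against light, 0 were called (0 of all genes), and 0 to 0 without 1 mouse. With DESeq2 it was 1 (Hsph1, 1 of all genes) and with the i5 index 1 (Hspb1, 1 of all genes). Within the 8 libraries of ZT6 and ZT18 it was 3 (9 of all genes). For the genotype level, 0 were called (42 of all genes), 2 with no filter (Hspa1a and Hspa1b, 141 of all genes), and 0 to 0 without 1 mouse. For the rhythm difference, 0 were called throughout. For ZT6 and ZT18 against the rest, 2 were called (2595 of all genes), and 1 to 3 without 1 mouse (2352 to 2714 of all genes). It was 1 with RLE size factors (2553) and 1 with 10 or more reads in every mouse (1624). It was 3 with no further scaling (2774) and 3 with no filter (2979). With the i5 index 2 other members, Hspa1a and Hspa1b, were called (1003 of all genes), in a fit that held no term for dark and light. For meta2d, the 2 control and 0 mutant members (beside 2.43% and 2.27% of all genes) became 0 to 5 and 0 to 3 without 1 mouse. An edgeR cosinor, another test, gave 8 and 4 (beside 4.43% and 4.16% of all genes), and 9 and 6 once the number series was added to it. For meta2d without 1 mouse and the cosinor with the number series, the share of all genes is not given here. Those counts are therefore not read as a result about the members. The causes of the changes in count were not tested.

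The replicate block, with the replicate number as a covariate, gave 3 members (79 of all genes) for the rhythm over both genotypes (Hspa1a, Hspa8 and Hsph1). For dark against light it gave 1 (Hsph1, 1 of all genes). For the cosinor it gave 8 in controls and 5 in mutants, where the share of all genes is not given here. Deviations of replicate 1 correlated between groups at -0.0665 to 0.128, with 1 of 66 over 0.1, so by this check the numbers did not pair the mice. Single members still differed by number. In mutants the first mouse had less Cirbp than the second at every time point. In controls the first mouse had more Hsph1 at every time point but ZT2. The part of the replicate number in the deviations and pair counts was not tested.

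Of 17 correlations, 10 passed by Pearson's r, against 0 within the 16 libraries, 0 within controls and 6 within mutants. Without the 2 mice farthest from the median, 6 with Cirbp, 7 with Rbm3 and that of Cirbp with Rbm3 passed. Within the 8 libraries of ZT6 and ZT18, 7 with Cirbp, 2 with Rbm3 and that of Cirbp with Rbm3 passed. The relation of Dnajb1 with Cirbp reversed within the 16 libraries (r = 0.0796) and within mutants (r = 0.0264). Groups of 2 mice were not searched for outlying mice. The depth of the reads before normalization is not known here. With the i5 index as a covariate, the genotype difference in the dark and light change of Hspb1 reversed to -0.0902, and it was called in neither fit.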
